A study of Homo sapiens with 4 samples.

Results

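The 36 interferon-stimulated genes described here are 36 of the 34515 genes to which the deposited transcripts could be assigned. They were listed by gene symbol, without a rule on measured values, but with earlier results of these data known. All 36 were found. MCF10A cells are breast epithelial cells that grow without limit in culture but do not form tumours. Every library is labelled as MCF10A with scramble shRNA, the control hairpin of knockdown studies. That shared label does not account for the level of PHF8 given below, which was lower in the 2 libraries numbered 2. The control group (0 h, no TGF-β1) has 2 libraries, and the treated group, given 5 ng/ml TGF-β1 for 1.5 h, also has 2. In each group 1 library carries replicate number 1 and the other number 2, and the labels do not say what a number stands for beyond a biological duplicate. The comparison of 1.5 h with 0 h asks how the transcriptome responds early to TGF-β1. The comparison of number 2 with number 1 sets 1 control and 1 TGF-β1 library against the other such pair, and its labels name no difference between them.

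Interferons are cytokines that cells release when they sense viral nucleic acid. Type I and type III interferons act through receptor-bound JAK kinases to form a complex with STAT2 and IRF9 that binds the interferon-stimulated response element (ISRE) before antiviral genes. Interferon gamma acts on the gamma-activated site (GAS), which is how IRF1 is classically induced. Epithelial cells keep a low level of many of these genes without added interferon.

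Windows from 250 bases before to 50 bases after an annotated start (RefSeq, build GRCh38.p14) were at hand for 30 of the 36 genes. IFIT2, IRF7, MX2, OAS2, OASL and USP18 had none. The ISRE core was searched as GAAA, any 2 bases and GAAA on both strands and the GAS core as TTCNNNGAA, which reads the same on both strands. The ISRE core stood in a window of 20 of the 30 genes (66.7%), against 4.38% of all genes with a window. The GAS core stood in 8 of the 30 (26.7%), against 9.38%. A match is a description of letters and not of binding. The following 30-base runs are shown because they belong to genes whose values are described below. They read 5′ to 3′ on the strand of the gene, and capitals mark the ISRE core or its reverse complement.
BST2: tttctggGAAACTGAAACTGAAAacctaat
IFI44L: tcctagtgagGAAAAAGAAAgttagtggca
HERC5: attacagTTTCCTTTTCCTTTTCgattccg
RSAD2: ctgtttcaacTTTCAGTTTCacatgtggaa
IFI44: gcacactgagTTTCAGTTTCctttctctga
IFIT3: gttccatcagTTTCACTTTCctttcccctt
OAS3: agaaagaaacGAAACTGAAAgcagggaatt
ISG15: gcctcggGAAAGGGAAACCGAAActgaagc
DTX3L: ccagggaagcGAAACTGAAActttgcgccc
TAP1: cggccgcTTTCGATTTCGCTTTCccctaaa

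In the BST2, HERC5, ISG15 and TAP1 runs the cores overlap. The BST2 run lies at chr19:17405738-17405767 on the minus strand, where GENCODE also annotates exons of BISPR and MVB12A on the plus strand. The IFI44L run is at chr1:78620365-78620394, where its core overlaps an IFI44L exon of GENCODE, and the same 30 letters occur once more at chr1:78620274-78620303. The OAS3 run is at chr12:112938321-112938350, upstream of its exons. The DTX3L run, chr3:122564322-122564351, also lies in the window of PARP9, which is transcribed the other way, so this pair shares 1 core. IRF1, IFI35, HERC6, STAT2, IRF9, DDX58, OAS1, PSMB9, SAMD9L and XAF1 had no ISRE core in these windows. IRF1 had a GAS core, in capitals here, at chr5:132490878-132490907 on the minus strand.
IRF1: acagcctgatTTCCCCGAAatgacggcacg

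**Figure D1:**
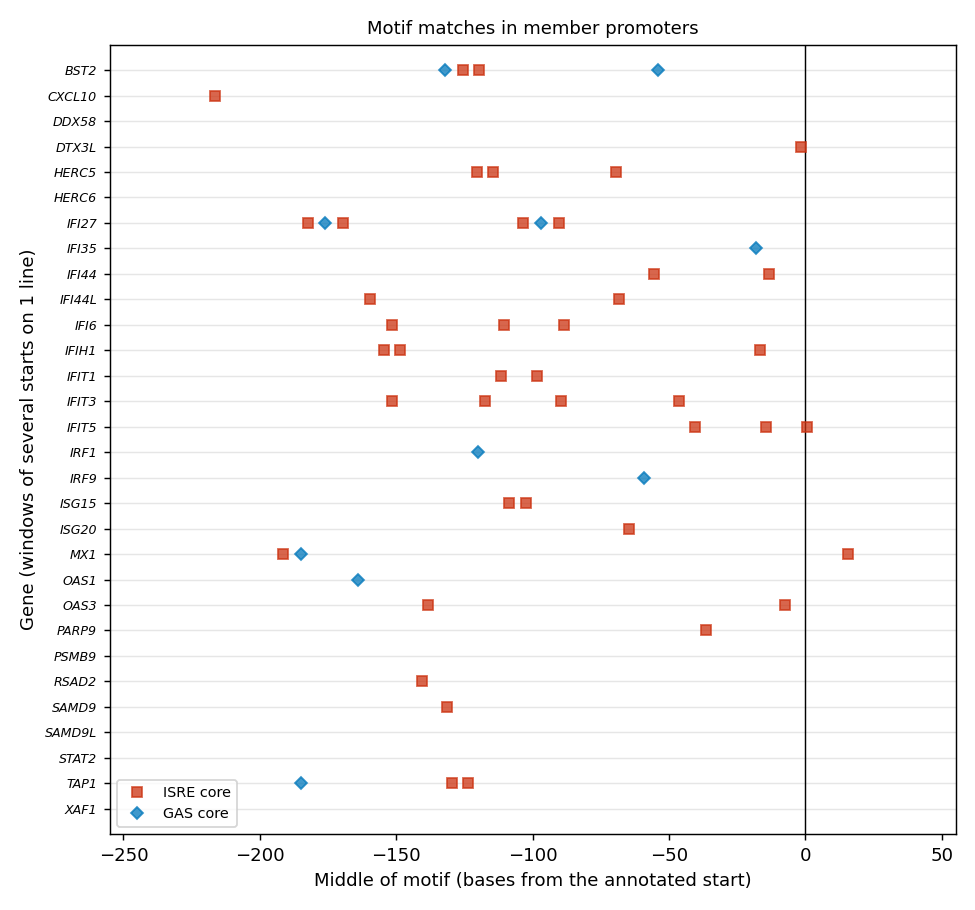
Position of each ISRE core (squares) and GAS core (diamonds) in the promoter windows of 30 genes, in bases from the annotated start; a gene with several annotated starts has its windows on 1 line, so 1 element can appear more than once. IRF1, IRF9, IFI35 and OAS1 have a GAS core and no ISRE core, and 6 genes have neither.

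Estimated counts per library ran from 35737659 to 40792300. In both groups the number 2 library stood apart from the number 1 library: PHF8, a histone demethylase named in the labels' protocol, was at 19.9 and 19.7 CPM (counts scaled to library size) in the number 1 control and TGF-β1 libraries and at 3.81 and 3.93 CPM in those numbered 2. The mean of PHF8 was thus 5.11-fold lower in the libraries labelled scramble and numbered 2 (edgeR adjusted p = 0.000663). The scramble label shared by all 4 libraries does not account for this difference. Whether the libraries numbered 2 differ from number 1 in hairpin, clone or batch cannot be told apart. Each value of number 2 against number 1 carries that limit. The treatment was visible: SMAD7, the inhibitory SMAD induced by TGF-β, was at 8.45 and 8.14 CPM in the controls and 126.8 and 98.4 CPM after TGF-β1 (DESeq2 adjusted p = 6.27e-47, edgeR adjusted p = 0.0865). Of the 10 epithelial markers, all 10 were kept by the filter on low counts, and their summed level was 6832 to 11070 TPM (abundance corrected for transcript length). The summed level of 11 leukocyte markers was 41.3 to 55.5 TPM. Of these 11, 5 were kept by the filter, namely PTPRC, CD14, CD68, CSF1R and IL3RA. The lymphocyte markers CD3E and MS4A1 were at 0 in every library.

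Without added interferon, the cells held a modest level of most of these genes. Mean levels over the 4 libraries ran from 0.288 to 35.4 TPM with a median of 7.38 TPM, against a median of 12.9 TPM for the 14861 genes kept by the filter. Of the 36 genes, 14 had at least 10 TPM and 5 were under 1 TPM. TAP1, a subunit of the transporter that feeds peptides to MHC class I, was highest, at 34.6 and 36.9 TPM in controls 1 and 2 and 35.6 and 34.7 TPM in TGF-β1 libraries 1 and 2. Next came IRF1, STAT2, IFI44L and SAMD9. These levels sum all transcripts of a gene, also those not annotated as protein-coding. For IFI44L, such a transcript, IFI44L-208, was at 6.55 to 14.1 TPM, and the protein-coding IFI44L-201 at 3.44 to 6.97 TPM. In estimated counts, which are not corrected for transcript length, IFI44L-201 held 60.2% to 67.6% of the gene and IFI44L-208 16.2% to 17.6%. At the other end stood CXCL10, the chemokine that attracts activated T cells, with 12, 9, 5 and 7 counts in the same order of libraries, the only 1 of the 36 removed by the filter. In the order of mean TPM, neighbours such as SAMD9, DTX3L and OAS3 overlapped in their library values.

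The level of 4 of the genes depends on how transcripts are joined to genes. TAP1, PSMB9, IRF7 and IFI27 also have transcripts on sequences outside the primary assembly, such as alternate haplotypes, and the estimation divided their reads among the copies. TAP1 had 477, 471, 472 and 441 counts (controls 1 and 2, then TGF-β1 libraries 1 and 2) on the primary assembly and 2847, 2847, 2862 and 2647 counts over all copies. IRF7, the factor that amplifies the type I interferon response, had 45, 37, 46 and 99 counts on the primary assembly, where TGF-β1 library 2 looks high. Over all its copies it had 169, 142, 180 and 112 counts, and the same library is the lowest. All values below use all copies.

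**Figure D2:**
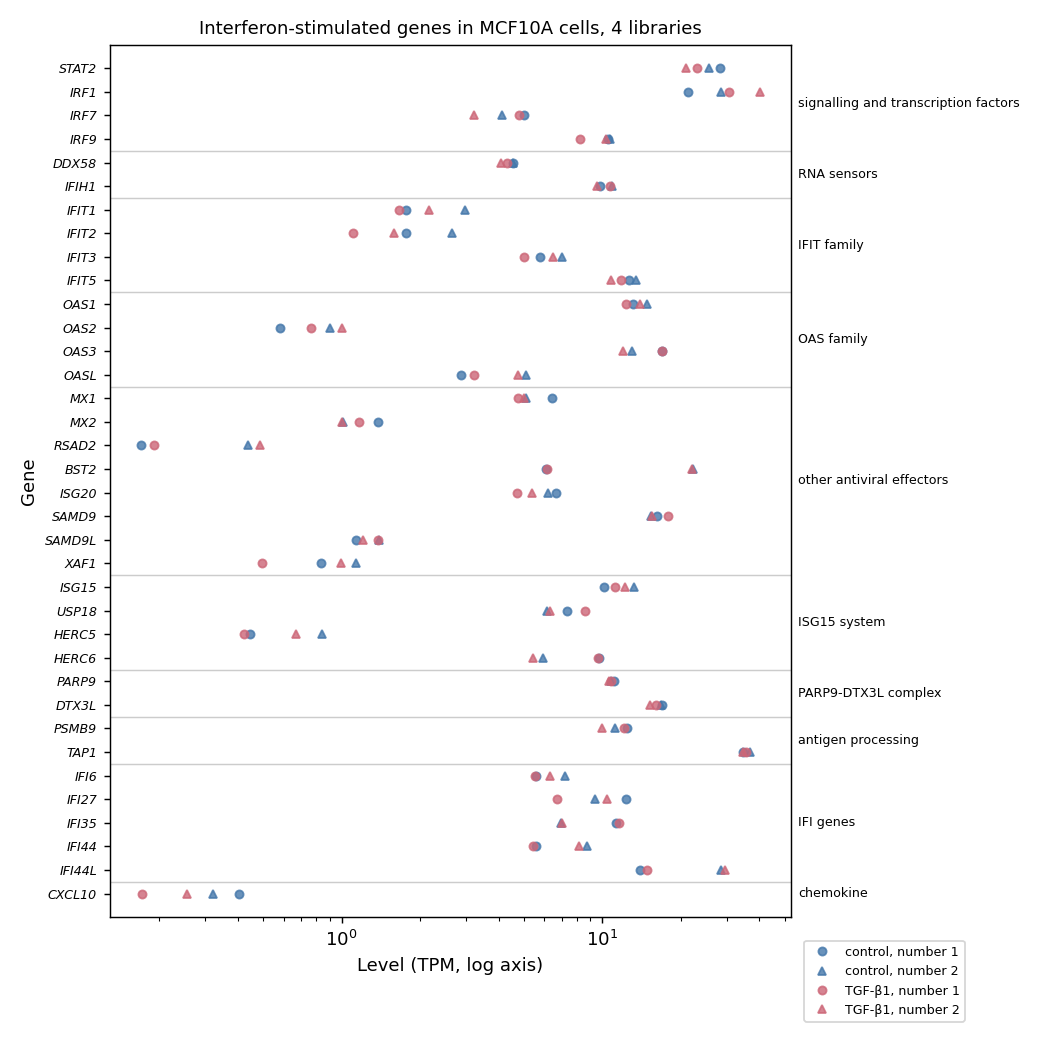
Level of each of the 36 genes in TPM (log axis) in the 4 libraries; colour marks control or TGF-β1, and circles and triangles mark replicate numbers 1 and 2. BST2 and IFI44L separate by shape and not by colour, and TAP1 is the highest.

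In fits that take no account of replicate number, none of the interferon-stimulated genes passed the test for a change at 1.5 h of TGF-β1. The median log2 fold change over the 35 genes tested was -0.05, between -0.64 for IFIT2 and 0.50 for IRF1, beside a median of -0.01 over all 14861 genes. edgeR's quasi-likelihood test called 0 of 35 (0% of all genes were called, 0 of 14861), with 0 of 35 at an unadjusted p under 0.05, where 1.67% of all genes had one. DESeq2 called 0 of 36, against 0.382% of the genes it tested (89 of 23273), and limma on log2(TPM + 1) called 0. edgeR did not call SMAD7 in this comparison either.

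IRF1 is the exception when replicate number is taken into account. This transcription factor, which drives antiviral and antigen-presentation genes, was at 26.7 and 38.5 CPM in controls 1 and 2 and at 36.7 and 55.5 CPM in TGF-β1 libraries 1 and 2. The groups overlap, because control 2 is above TGF-β1 library 1, yet within each number the TGF-β1 library is the higher, by 0.46 and 0.53 on the log2 scale. The means were 32.6 ± 8.34 and 46.1 ± 13.2 CPM (SD, n = 2 libraries in each group), and edgeR gave a log2 fold change of 0.50 with a standard error (SE) of 0.29 and an adjusted p of 1. With the replicate number as a block, the log2 fold change was 0.49 (SE 0.05), with an adjusted p of 0.00197 in edgeR and 0.00938 in DESeq2. That blocked fit called 2.47% of all genes in edgeR and 1.05% in DESeq2, and IRF1 was the 1 member called by each. Without 1 library, and with no block, its log2 fold change ran from 0.176 to 0.795 and was called in 0 of 8 fits. Nothing in the labels ties equal numbers to 1 day or 1 batch.

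The other members of the signalling core moved little. STAT2, a part of the interferon complex, was at 47.0 and 39.6 CPM in the controls and 41.2 and 36.5 CPM after TGF-β1, with overlapping groups. IRF9, the DNA-binding part of that complex, was at 7.03 and 6.37 CPM and then 5.64 and 7.10 CPM, lower within number 1 and higher within number 2. Its gene span overlaps that of AL136295.5, on the same strand and at a mean of 2.24 CPM, by 5513 bases. The part of that gene in the IRF9 counts was not tested. IRF7 was at 4.19 and 3.81 CPM and then 4.53 and 3.19 CPM, higher within number 1 and lower within number 2. The log2 fold changes were -0.16 (SE 0.15) for STAT2, -0.07 (SE 0.22) for IRF9 and -0.05 (SE 0.29) for IRF7, and on the primary assembly alone that of IRF7 would have been 0.91.

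The cytosolic RNA sensors were level. DDX58, which encodes RIG-I, was at 14.0 and 14.2 CPM in the controls and 13.2 and 13.4 CPM after TGF-β1. IFIH1, which encodes MDA5, was at 23.2 and 25.9 CPM and then 24.3 and 24.8 CPM. For DDX58 both TGF-β1 libraries lay just under both controls, by -0.09 on the log2 scale within each number, and for IFIH1 the groups overlap.

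The largest negative values were in effector genes with low counts. IFIT2, which binds viral RNA with its IFIT partners, was at 3.81 and 5.96 CPM in the controls and 2.49 and 3.79 CPM after TGF-β1. Both TGF-β1 libraries lay under both controls, the second by a small margin, and the edgeR log2 fold change of -0.64 (SE 0.38) did not pass (unadjusted p = 0.162). Without 1 library it ran from -0.966 to -0.274. The gene spans of IFIT1, IFIT2 and IFIT3 lie within that of LIPA, a lysosomal lipase gene on the opposite strand. LIPA was at a mean of 148.7 CPM, and whether the counting used strand is not given in the sources used here. How far exons of LIPA overlap those of the IFIT genes was not measured. A part of LIPA reads in their low levels was therefore not tested. ISG20, an exonuclease that degrades RNA, was at 3.12 and 2.58 CPM and then 2.34 and 1.97 CPM, again without overlap, with a log2 fold change of -0.40 (SE 0.29, unadjusted p = 0.239, both from edgeR). XAF1, a pro-apoptotic partner of XIAP, was at 1.51 and 2.26 CPM and then 1.11 and 1.85 CPM, and its groups overlap.

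In all, 5 of the 35 genes (14.3%) had groups that do not overlap, against 16% of all genes. They are DDX58, DTX3L, IFIT2, IFIT5 and ISG20, each with the TGF-β1 libraries lower, as in 8.2% of all genes. No member was at least 2-fold apart the same way within both numbers, as 1.02% of all genes were. By role, the 4 IFIT genes had negative log2 fold changes, from -0.64 to -0.12, and none passed. The 4 OAS genes, which make the activator of RNase L or related proteins, lay between -0.06 and 0.10. The 5 IFI genes lay between -0.31 and 0.14.

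**Figure D3:**
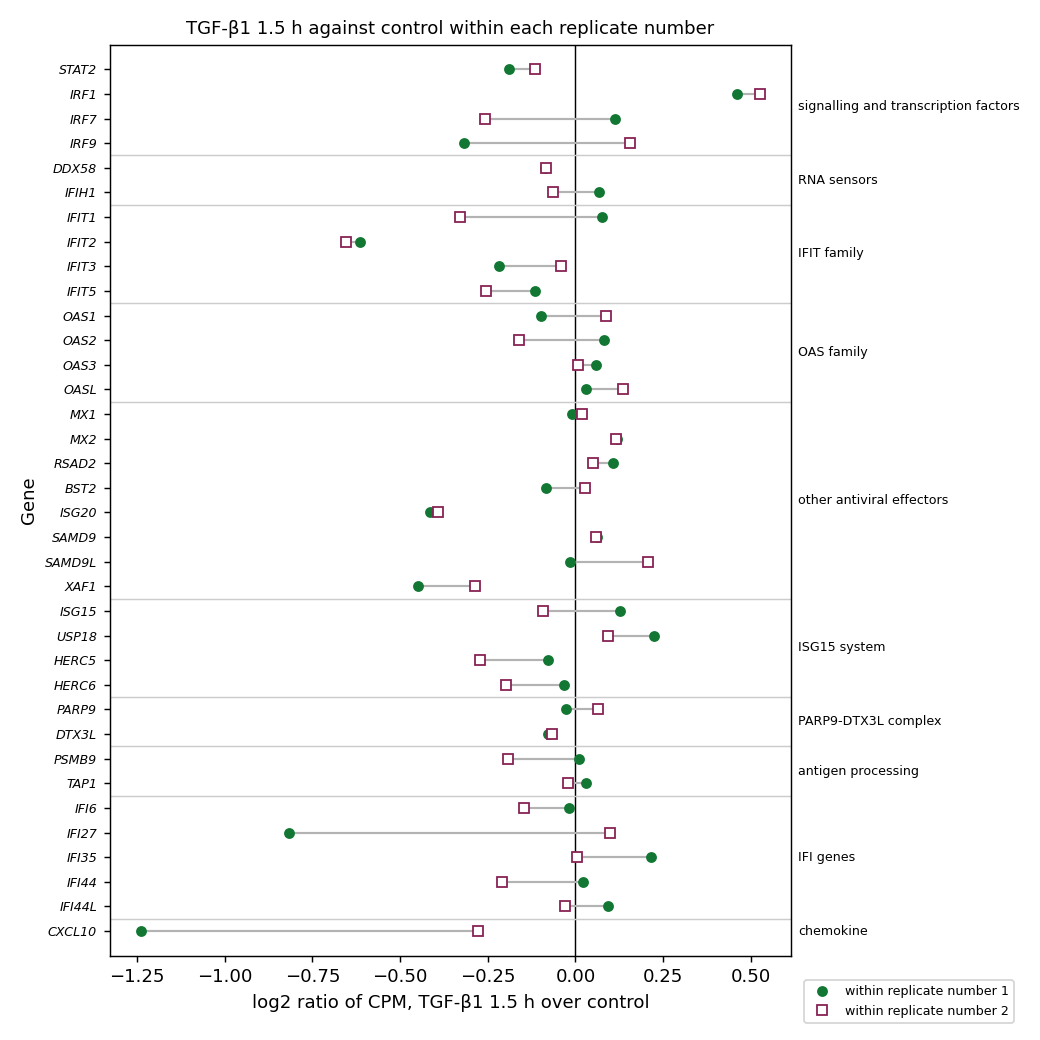
log2 ratio of CPM, TGF-β1 1.5 h over control, within replicate number 1 (circles) and within number 2 (squares), for the 36 genes. IRF1 is at 0.46 and 0.53 and IFIT2 at -0.61 and -0.65; the wide CXCL10 line rests on 5 to 12 counts per library.

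Values of these genes differed more by replicate number than by TGF-β1: the median size of the log2 fold change, whatever its sign, was 0.29 against 0.09, beside 0.27 and 0.07 for all genes. In the comparison of number 2 with number 1, edgeR called 10 of 35 (28.6%), where it called 38.1% of all genes. Of the 35, 7 (20%) were called higher, beside 16.8% of all genes, and 3 (8.57%) lower, beside 21.3%. DESeq2 called 6 of 36 (16.7%), against 21% of its genes. The share called was under that of all genes in both tools, but it rests on 10 and 6 genes and is not read as a trait of the set. Of the 36 genes, 27 had a mean TPM under the median of the genes kept by the filter. The part of level in the calls was not tested. Groups did not overlap for 27 of the 35 (77.1%), beside 72.9% of all genes. The median log2 fold change was 0.10 for these genes and 0.01 for all genes. In this paragraph and those that follow, higher and lower refer to number 2 against number 1, that is, to the libraries labelled scramble with low PHF8 against those with high PHF8.

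BST2 had the largest fold of the 36. It encodes tetherin, a membrane protein that holds budding virus particles on the cell surface. It was at 3.79 CPM in control 1 and 3.57 CPM in TGF-β1 library 1, and at 13.9 and 14.2 CPM in control 2 and TGF-β1 library 2. The libraries of each number sit close together whatever the treatment, and the fold was 3.82 (edgeR log2 fold change 1.93, SE 0.10, adjusted p = 0.000815). Nearly all of its counts fell on 1 transcript, BST2-201, with 153, 516.7, 138.6 and 495.8 counts in controls 1 and 2 and TGF-β1 libraries 1 and 2.

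IFI44L, an interferon-induced feedback regulator, was at 21.3 and 22.8 CPM in the control and TGF-β1 libraries numbered 1 and at 44.4 and 43.5 CPM in those numbered 2. It was 1.99-fold higher (edgeR adjusted p = 0.000848). Its neighbour IFI44 was at 5.08 and 5.16 CPM and then 7.55 and 6.53 CPM, 1.38-fold higher (edgeR adjusted p = 0.0474). RSAD2, which encodes viperin, was at 0.421 and 0.453 CPM and then 1.10 and 1.14 CPM, 2.56-fold higher on 17 to 41 counts per library (edgeR adjusted p = 0.0139). These 3 genes had groups without overlap, and RSAD2 and BST2 were the 2 of 35 (5.71%) at least 2-fold apart in both the controls and the TGF-β1 libraries, as 5.32% of all genes were.

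OASL, an OAS-like protein that supports RIG-I, was at 4.43 and 4.53 CPM in the number 1 libraries and 7.36 and 8.09 CPM in the number 2 libraries, 1.72-fold higher (edgeR adjusted p = 0.00808). HERC5, the ligase that attaches ISG15 to new proteins, was at 1.09 and 1.03 CPM and then 1.96 and 1.62 CPM (edgeR adjusted p = 0.0471). IFIT3 was at 9.83 and 8.46 CPM and then 12.1 and 11.7 CPM (edgeR adjusted p = 0.0490). HERC5, IFI44, IFIT3 and RSAD2 were called by edgeR and not by DESeq2.

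Other members went the opposite way. HERC6, a relative of HERC5, was at 20.8 and 20.4 CPM in the number 1 libraries and at 14.1 and 12.3 CPM in the number 2 libraries, 1.56-fold lower (edgeR adjusted p = 0.00546). IFI35, which binds the partner protein NMI, was at 7.31 and 8.48 CPM and then 4.54 and 4.56 CPM, 1.74-fold lower (edgeR adjusted p = 0.00971). OAS3 was at 60.2 and 62.8 CPM and then 51.7 and 52.0 CPM, 1.19-fold lower (edgeR adjusted p = 0.0148). Families were therefore split: OASL was higher and OAS3 lower, and HERC5 higher and HERC6 lower.

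BST2, IFI44L and HERC6 were called in all 8 fits that left out 1 library (4 with edgeR, 4 with DESeq2). OASL was called in 4 of these 8, IFI35 in 3, OAS3 in 2 and IFIT3 in 1, and HERC5, IFI44 and RSAD2 in none. ISG15, the ubiquitin-like modifier, was at 4.04 and 4.41 CPM in the number 1 libraries and 5.37 and 5.04 CPM in the number 2 libraries, and did not pass (edgeR adjusted p = 0.144). IRF1 was 0.57 higher on the log2 scale and did not pass (edgeR adjusted p = 0.102), but was called with treatment as a term in the model (edgeR adjusted p = 0.000125). That fit called 15 of the 35 genes, beside 46.2% of all genes.

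**Figure D4:**
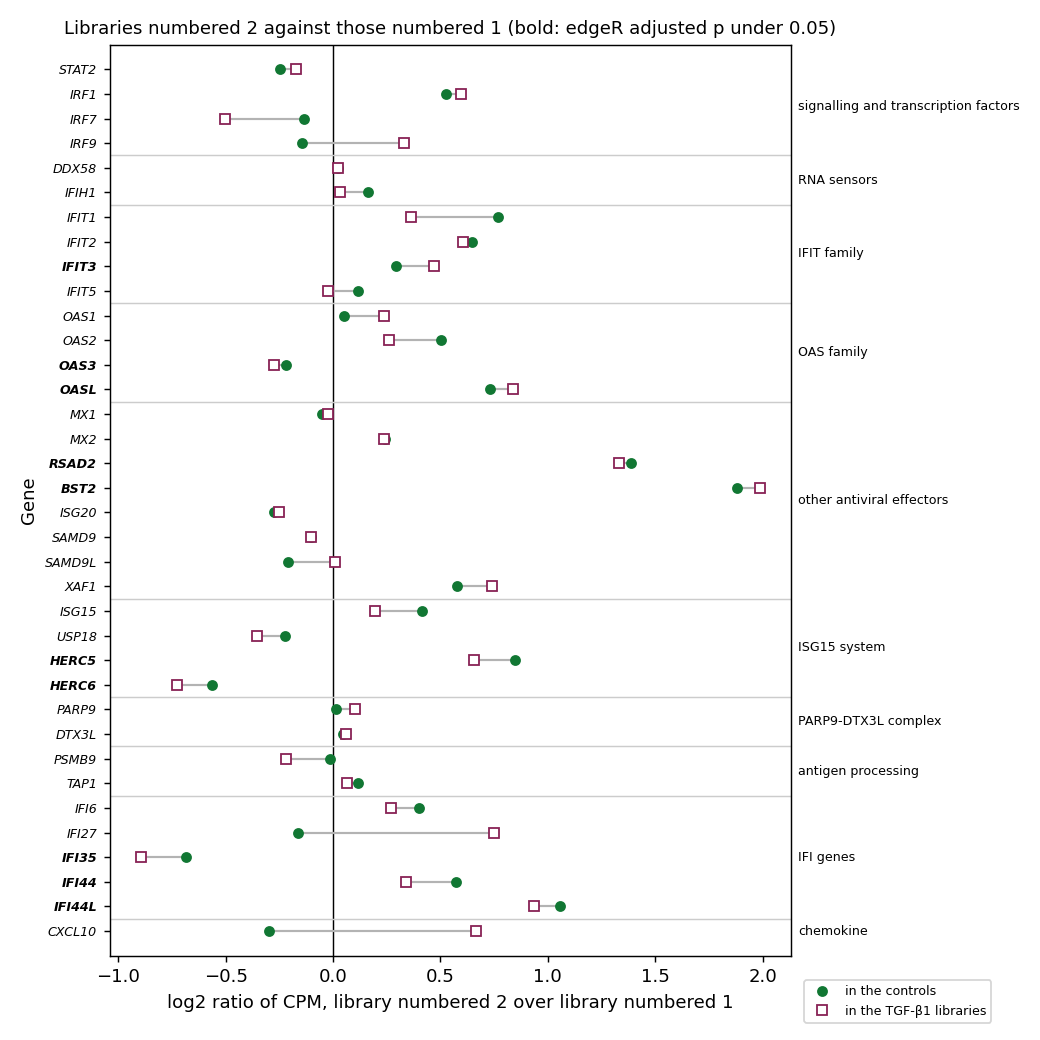
log2 ratio of CPM, library numbered 2 over library numbered 1, in the controls (circles) and the TGF-β1 libraries (squares); bold names have an edgeR adjusted p under 0.05. BST2 lies at 1.88 and 1.99, IFI44L at 1.06 and 0.93, and HERC6 at -0.57 and -0.73.

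Pairs that share a promoter region moved little in either comparison. PARP9 and DTX3L encode a complex that modifies histones. PARP9 was at 25.2, 25.4, 24.7 and 26.5 CPM and DTX3L at 69.1, 71.5, 65.4 and 68.2 CPM in controls 1 and 2 and TGF-β1 libraries 1 and 2. PSMB9, a subunit of the immunoproteasome, was at 5.72, 5.67, 5.76 and 4.96 CPM, and TAP1 at 70.5, 76.5, 72.0 and 75.4 CPM. None of these 4 genes passed edgeR's or DESeq2's threshold in either comparison. PARP9 and DTX3L overlap on opposite strands by 340 bases, and PSMB9 and TAP1 by 8770 bases. RSAD2 overlaps CMPK2 by 830 bases and IRF1 overlaps C5orf56 by 7094, also on opposite strands, with CMPK2 at a mean of 1.48 CPM and C5orf56 at 1.25 CPM. These overlaps are of gene spans, and how far exons overlap was not measured. The kit is stranded, but without a stated strand setting reads from overlapping exons of such partners could not be told apart. SAMD9, an antiviral restriction factor, was at 77.4, 72.1, 80.8 and 75.1 CPM and did not pass either.

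Upstream genes were measured with lists chosen for this pathway. Of 22 interferon genes, 16 were at 0 in every library, IFNB1 and IFNG among them, and none was kept by the filter; IFNK, an interferon of keratinocytes, had 6 and 3 counts in the controls and 15 and 9 counts after TGF-β1. Of 11 receptor and JAK-STAT genes, edgeR called 0 at 1.5 h of TGF-β1, and 2 higher and 4 lower in number 2, beside 16.8% of all genes higher and 21.3% lower. IFNGR1, a chain of the interferon gamma receptor, was at 144.6 and 150.5 CPM in the number 1 libraries and 272.1 and 277.1 CPM in the number 2 libraries (edgeR adjusted p = 0.000715). The receptor chain and BST2 were higher in the libraries where HERC6 was lower.

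In this list and those that follow, DESeq2 too called 0 genes after TGF-β1, and 1 gene, IRF2BP2, had an unadjusted p under 0.05 in edgeR. By replicate number, the lists held edgeR calls in both directions, and each count is to be read against the 38.1% of all genes called, 16.8% higher and 21.3% lower. Of 17 nucleic acid sensing genes tested, 5 were higher and 1 lower in number 2, with TMEM173, which encodes STING, at 21.2 and 18.98 CPM and then 32.0 and 33.3 CPM. Of 17 genes of MHC class I presentation, 5 were higher and 4 lower, with HLA-B higher at 58.1 and 55.7 CPM and then 107.0 and 114.7 CPM, and TAP2, the partner of TAP1, lower at 88.5 and 99.5 CPM and then 57.7 and 56.6 CPM. Of 60 other interferon-stimulated genes tested, 12 were higher and 13 lower, with GBP1, an interferon-induced GTPase, lower at 37.7 and 35.6 CPM and then 19.9 and 18.2 CPM. IRF2BP2, a corepressor that binds IRF2, was at 151.5 and 153.2 CPM in the controls and 223.5 and 217.4 CPM after TGF-β1, with an unadjusted p of 0.00676 in edgeR and an adjusted p of 0.00111 with the replicate block.

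Some markers of cell type also differed by replicate number. Among the 10 epithelial markers edgeR called 1 higher and 6 lower in number 2, beside 16.8% and 21.3% of all genes, and their summed level was 10180 and 11070 TPM in the number 1 libraries against 6832 and 7619 TPM in the number 2 libraries. Of 11 leukocyte markers 5 were tested and 2 called, CD14 and IL3RA, both higher, and the summed level of the list was 47.5 and 41.3 TPM against 55.5 and 52.6 TPM. Their part in the differences of the interferon-stimulated genes was not tested. In these bulk samples, fewer cells with an active gene and less RNA per cell cannot be told apart.

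Single transcripts of 2 members were at 0 in both controls and present after TGF-β1, and were picked out after their values were seen. IFI35-203 had 0 counts in both controls and 112.8 and 50.2 counts in TGF-β1 libraries 1 and 2, while the counts of the whole gene were 295, 169, 337 and 160 in the usual order. SAMD9-203 had 0 counts in both controls and 40.9 and 54.4 counts after TGF-β1. Over all transcripts, 93 had under 0.5 counts in both controls and at least 30 in both TGF-β1 libraries, and 88 had the reverse pattern, none of them from these genes. Such estimates divide reads among overlapping transcripts, and no test was made on them.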

How the data were processed

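The 4 libraries were made with a stranded, ribosomal-RNA-depleting kit, per the labels' protocols. Per the submitters' processing notes, the authors ran kallisto against GRCh38; its version and transcript set were not given in the sources used here. Deposited tables hold estimated counts and TPM per transcript, per the file headers.

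Of 173259 transcripts, 159239 matched GENCODE release 29 on the primary assembly by identifier. A further 11211, mostly on alternate haplotypes, were added by gene symbol, which was decided after seeing the data; sums on the primary assembly alone were kept as an alternative. The unmatched rest held 0.66% to 0.8% of counts. Sums per gene were rounded to whole numbers. edgeR 4.0.16 in R 4.3.3 (TMM scaling, filterByExpr, quasi-likelihood test, Benjamini-Hochberg adjustment over 14861 genes, threshold 0.05) was the main test without covariates. DESeq2 1.42.0 and limma 3.58.1 on log2(TPM + 1), RLE scaling, no filter, a threshold of 0.01, the replicate block or treatment term, and fits without each library were alternatives. The scripts were tested on simulated counts with the same spread setting for every gene and no difference by replicate number. That test does not show how often the fits find a change in data such as these. An edgeR SE is approximated as the log2 fold change over the root of F.

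Named members are those called by edgeR or DESeq2 in either comparison, the 4 largest log2 fold changes in each at a mean of at least 50 counts, the 5 highest by TPM, and IRF1, IRF7, IRF9, STAT2, DDX58, IFIH1, ISG15, PARP9, DTX3L, PSMB9 and TAP1. The values of 2 genes of the other lists are not reported here. Members and lists were chosen with earlier results of these data known. With 2 libraries per group, p-values rest on the spread between these libraries, adjusted by the tools with the spread of other genes. For number 2 against 1, each group is 1 control and 1 TGF-β1 library. In the main fit the spread within such a group therefore includes the treatment difference. Each number has 1 such pair, whose libraries may not be independent, so these p-values do not measure a spread between repeats of a number. Markers of endothelium and red cells (7 genes, 3 tested) and of fibroblasts (6 genes, 3 tested) had 1 edgeR call between them, HBA1, higher in number 2.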

Additional observations from a re-analysis of the deposited data

How the results depend on the processing

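With 2 libraries per group, a missing call does not show that a gene did not differ. After TGF-β1, no member was called under RLE scaling, no filter, DESeq2, limma, the primary assembly alone, a threshold of 0.01 or any fit without 1 library; only with the replicate block was 1 called, IRF1, by edgeR and 1 by DESeq2, again IRF1. Over all genes edgeR's 0 calls became 15 with no filter, 89 with DESeq2 (91 on the primary assembly alone), 367 with the replicate block and 244 with that block in DESeq2, and 0 to 69 without 1 library. The difference between numbers 2 and 1 correlated across genes between controls and TGF-β1 libraries (r = 0.808 over 14861 genes, which are not independent). The main fit leaves this difference in the spread within each group, and the replicate block takes it out. What a shared number stands for is not in the labels. For number 2 against 1, the 5667 genes called became 3061 with limma, 3644 in DESeq2 with treatment as a term, 2779 at a threshold of 0.01 and 2397 to 4249 without 1 library. The 10 members called became 6 with DESeq2, 6 with DESeq2 on the primary assembly alone, 6 in DESeq2 with treatment as a term, 5 at a threshold of 0.01 and 3 to 8 without 1 library; with all libraries they were 7 to 15 in the other fits of edgeR and limma. The cause of these shifts was not tested, other than that fewer libraries enter some fits.

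The sign of the log2 fold change after TGF-β1 changed under some alternative for 17 of the 25 named members, none of them called in that comparison. It kept its sign in every alternative run for 8, but not its size: without 1 library it ran from 0.176 to 0.795 for IRF1, -0.966 to -0.274 for IFIT2, -0.540 to -0.242 for ISG20, -0.759 to -0.024 for XAF1, -0.278 to -0.008 for STAT2, -0.094 to -0.066 for DDX58, -0.099 to -0.043 for DTX3L and 0.002 to 0.130 for SAMD9. Leaving out 1 library unbalances the replicate numbers between groups, and there the values ran from -1.304 to 1.234 for BST2, -0.736 to 0.916 for RSAD2, -0.526 to 0.641 for IFI44L and -0.385 to 0.543 for IFI35. They ran from -0.559 to 0.290 for HERC5, -0.513 to 0.236 for HERC6, -0.375 to 0.516 for OASL, -0.366 to 0.209 for IFI44 and -0.368 to 0.096 for IFIT3. They ran from -0.330 to 0.195 for IRF7, -0.245 to 0.079 for IRF9, -0.181 to 0.233 for ISG15, -0.111 to 0.182 for OAS3 and -0.203 to 0.034 for PSMB9. The narrowest were -0.074 to 0.089 for IFIH1, -0.029 to 0.067 for PARP9 and -0.048 to 0.071 for TAP1. With all libraries, BST2 went from 0.002 to -0.018 with the replicate block (-0.017 in DESeq2). IFIH1 went from -0.001 to 0.003 with RLE scaling, 0.007 with DESeq2, 0.008 with DESeq2 on the primary assembly, 0.002 with the replicate block and 0.009 with that block in DESeq2. With limma, OAS3 was at -0.057, PARP9 at -0.030 and TAP1 at -0.024, and TAP1 was at -0.001 on the primary assembly alone. On the primary assembly alone IRF7 went to 0.911 (0.920 in DESeq2) and PSMB9 to 0.101 (0.109 in DESeq2), where the sums leave out copies.

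For number 2 against 1 the sign changed for 7 of 25 named members, none of them called there. On the primary assembly alone IRF7 went from -0.314 to 0.742 (0.737 in DESeq2). With limma, DDX58 was at -0.032, DTX3L at -0.041, IFIH1 at -0.003, PARP9 at -0.029 and ISG20 at 0.031. Without 1 library DDX58 ran from -0.042 to 0.066, DTX3L from -0.011 to 0.086, IRF9 from -0.089 to 0.248 and PARP9 from -0.003 to 0.097.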
